A study of Mus musculus with 16 samples.

Results

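Gzmk-positive non-cycling CD8 T cells were examined in mouse B16 melanomas. Members were chosen by their counts of 16 genes. A cell was a member when its unique molecular identifiers (UMIs, each standing for 1 captured RNA molecule) summed to at least 2 for Cd3d, Cd3e, Cd3g and Trac, to at least 1 for Cd8a and Cd8b1, to at most 5 for C1qa, C1qb and C1qc, and to at most 1 for Gzmb and Prf1. It also had at least 1 UMI of Gzmk and none of Cd4, Foxp3, Mki67 or Top2a. Among 116552 barcodes, 99357 had at least 200 genes and at most 10% mitochondrial UMIs, 14367 of these were CD8 T cells by the rule, 9823 of those were non-cycling, and 1939 were members. The member counts per lane were 612 and 398 in control CD40, 156 and 711 in B2m-null CD40, 10 and 16 in control isotype, and 9 and 27 in B2m-null isotype.

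C57BL/6J mice carried subcutaneous tumours grown from 1000000 Bro4.1 B16 melanoma cells, either control or lacking B2m, the invariant partner chain that MHC class I molecules need at the cell surface. On days 6, 9 and 12 each mouse was injected intraperitoneally with 100 µg of anti-CD40, an antibody that stimulates CD40, or of rat IgG2a as isotype, and CD45-selected tumour cells were collected on day 14. The groups are named by tumour and antibody, as in the counts above. The labels attach the genotype to the animal and the design text attaches it to the implanted line. The design text is followed, with every host taken as B2m-sufficient, and ages were not analysed here. The implanted cells are a transplanted line, and nothing in the labels says how many clones they hold. Cells of single mice were marked with hashtag antibodies and pooled within a group. Each group had 2 lanes, which were 2 separate pools except in control CD40, where the labels call them technical replicates of 1 pool. The labels list 3 hashtags for each pool, 2 of the 8 files held 3 and the other 6 held 2, and the hashtags read gave 16 mice: 2 in control CD40, 4 in B2m-null CD40, and 5 in each isotype group. If a further mouse was in any of those 6 lanes, its cells could be unassigned or counted in a named mouse. Assignment did not require a hashtag to exceed its background. Whether such cells are present was not tested.

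Granzyme K is a serine protease stored in the granules of T cells. In mice and people it marks CD8 T cells of effector memory type that hold little of granzyme B or perforin, the pair that kills target cells. Such cells often express the chemokine Ccl5 and keep part of the memory programme driven by the transcription factor gene Tcf7, and in tumours they have been described as memory-type or pre-exhausted cells. Gzmk (ENSMUSG00000042385, GRCm38 chr13:113171608-113225908, minus strand) is on the same chromosome as the related gene Gzma (ENSMUSG00000023132, chr13:113093825-113100981, minus strand), per GENCODE M21.

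The rule fixed the levels of its own genes, which are given as a description. Gzmk had 1 UMI in 1380 members, 2 in 386 and 3 or more in 173, with a highest count of 7. A further 4736 cells met every other gate with no Gzmk UMI and are called granzyme-low cells below. Gzmb and Prf1 together had no UMI in 1257 members and 1 UMI in 682. Just outside that limit, 395 cells met every other gate with 2 such UMIs, and 1326 in all had more than 1. Just outside the cycling limit, 260 cells had 1 UMI of Mki67 or Top2a. Most members thus rest on 1 Gzmk molecule. The median UMI count per cell was 1883 in members against 1503.5 in granzyme-low cells, and the part of depth in this division was not tested.

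The label was checked with genes outside the rule. Ccl5 was detected in 97.7% of members (1895 of 1939), against 24.0% of 26408 macrophages, whose median depth was 6484 UMIs. Macrophages were kept barcodes with at least 10 UMIs of C1qa, C1qb and C1qc, some Lyz2 and none of Cd3d, Cd3e, Cd3g or Trac. T cell transcripts in them are thus partly limited by this selection. Nkg7, a granule protein of cytotoxic lymphocytes, was detected in 92.3% of members and in 3.36% of macrophages. These genes do not set members apart from other CD8 T cells: Ccl5 was detected in 89.3% of granzyme-low cells, and Nkg7 in 82.6%. Gzmk itself had a UMI in 0.0492% to 0.146% of the macrophages of the isotype lanes and in 0.322% to 0.726% of those of the CD40 lanes. The part of background Gzmk in the member shares was not tested. Tcf7 was detected in 25.5% of members, Tox in 38.8% and Pdcd1 in 17.3%, against 0.901%, 0.519% and 0.307% of macrophages. Havcr2 was detected in 4.44% of members and 18.7% of macrophages, which can express it themselves, so the part of free RNA in the share among members was not tested. Ccr7, which marks naive and central memory cells, was detected in 2.06% of members, 5.93% of granzyme-low cells and 1.81% of macrophages. The median depth was 1883 UMIs in members against 6484 in macrophages, so these shares are at unlike depth. The part of background in the Ccr7 share was not tested.

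Depth and library facts were as follows. The lanes held 45985700 to 99264900 gene UMIs (rounded), and the summed UMIs of members ran from 22696 in control isotype pool 1 to 2210783 in control CD40 pool 1. No member barcode was shared between lanes. Of the members, 1765 were assigned to a mouse, 115 carried no clear hashtag and 59 carried 2 hashtags. B2m-null isotype replicate 1 stood apart in staining, with 21.8% of its barcodes assigned against 61.3% to 91.0% in the other 7 lanes. There were 6 mice with at least 20 members, namely control CD40 mice 1 and 2 (126 and 837), B2m-null CD40 mice 2, 3 and 4 (74, 487 and 179) and B2m-null isotype mouse 4 (22).

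The first question was how common these cells were in each group. Among mice with at least 20 CD8 T cells, the share of members among those cells was higher in each CD40-treated mouse than in the isotype-treated mice of the same tumour genotype. In control isotype it was 0.549%, 1.20%, 1.38%, 1.82% and 2.84% in the 5 mice. In control CD40 it was 8.68% and 17.5%. The means were 1.56% ± 0.849 (SD, n = 5) and 13.1% ± 6.25 (SD, n = 2), a difference of 11.5 percentage points. The exact two-sided permutation test over mice gave p = 0.0952, the smallest this design allows, and an adjusted p of 0.143 over 12 comparisons of shares.

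In B2m-null isotype the 3 mice with at least 20 CD8 T cells had 3.64%, 5.28% and 3.61%, and in B2m-null CD40 the 4 mice had 5.77%, 9.09%, 23.7% and 19.5%. The means were 4.18% ± 0.953 (SD, n = 3) and 14.5% ± 8.45 (SD, n = 4). These mice did not overlap, and the exact permutation p was 0.0571, again the smallest possible, with an adjusted p of 0.137. Both B2m-null CD40 mice with the low values came from pool 1 and both with the high values from pool 2, so the spread in that group followed the pools. Mice 2 and 3 of B2m-null isotype had 0 members of 6 CD8 T cells and 1 of 12, or 8.33%, and were left out. With them the groups overlap, since mouse 3 lies above the lowest CD40 mouse at 5.77%. With cells of at least 2000 UMIs thinned to that depth, the B2m-null means were 11.7% and 6.65%, with overlap (exact permutation p = 0.514). Shallower cells were left out there, and the median member had 1883 UMIs. When treatment labels were permuted within each tumour genotype, a test added after the data were seen, the mean difference over both genotypes was 10.9 percentage points with an exact permutation p of 0.00272 over mice. With pools in place of mice the smallest possible p was 0.111, and that was the p found.

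Under isotype antibody the share was higher in B2m-null than in control tumours, 4.18% against 1.56%, without overlap between mice with at least 20 CD8 T cells (exact permutation p = 0.0357, the smallest possible, adjusted p = 0.137). This rests on 2, 22 and 3 members in the B2m-null mice and on 3, 2, 3, 6 and 8 in the control mice. B2m-null isotype mouse 2, left out, had no member. Among all kept cells, with 5 mice in each group, the genotypes overlapped under isotype, 0.162% against 0.105% (exact permutation p = 0.524). Under CD40 antibody the tumour genotypes overlapped, 14.5% against 13.1% (exact permutation p = 0.8).

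As cycling cells are part of the denominator, 2 other denominators were used. Cycling cells made up 46.1% to 62.8% of CD8 T cells in the control isotype mice and 20.3% and 26.7% in the control CD40 mice. With B2m-null tumours they overlapped, at 54.5%, 43.4% and 36.1% in isotype mice 1, 4 and 5 against 51.0%, 53.2%, 20.4% and 27.5% in the CD40 mice. Among non-cycling CD8 T cells the members were 3.36% ± 1.60 (SD, n = 5) in control isotype, 16.9% ± 7.18 (SD, n = 2) in control CD40, 7.66% ± 1.85 (SD, n = 3) in B2m-null isotype and 21.9% ± 8.06 (SD, n = 4) in B2m-null CD40. The mice of CD40 and isotype with at least 20 such cells did not overlap in either genotype, with exact permutation p of 0.0952 and 0.0571. Among all kept cells the members were 0.105% and 3.35% in the isotype and CD40 mice with control tumours. With B2m-null tumours they were 0.162% and 3.67% (exact permutation p = 0.0159, adjusted p = 0.137). None of the 12 adjusted p-values was under 0.05. Depth also limits the shares. In control tumours the median non-cycling CD8 T cell had 2514.5 UMIs under isotype and 1674 under CD40. With B2m-null tumours the medians were 2384 and 2066. The rule sets both lower and upper limits on counts, so deeper cells can be gained or lost. Cells with at least 1000 UMIs were thinned to 1000, and shallower cells were left out. The B2m-null mice then overlapped, 15.2% against 6.84% (exact permutation p = 0.114). The control mice still did not, 11.4% against 2.56%.

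**Figure D1:**
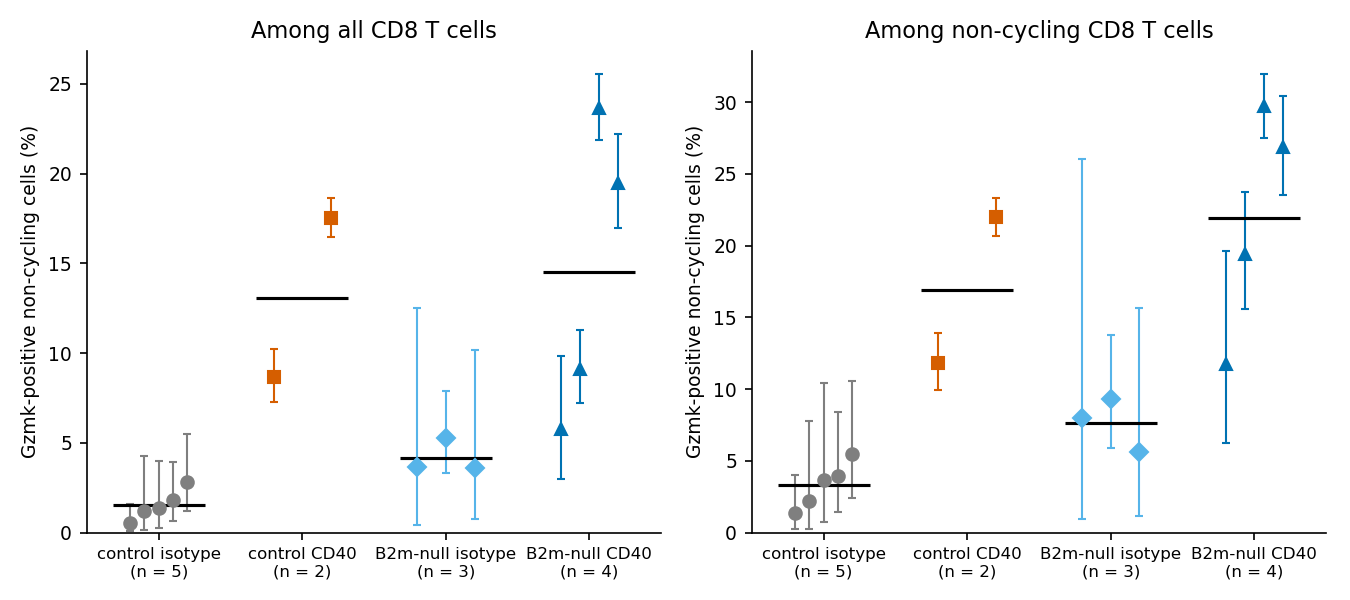
Gzmk-positive non-cycling cells as a percentage of all CD8 T cells (left) and of non-cycling CD8 T cells (right), 1 point per mouse with at least 20 cells in the denominator; error bars are exact 95% binomial intervals and horizontal bars are group means. Each CD40-treated mouse shown lay above the isotype-treated mice shown of the same tumour genotype, and the B2m-null CD40 mice ran from 5.77% to 23.7% of CD8 T cells.

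Gzmk was not restricted to the members. Gzmk-positive cells of any granzyme B and perforin level were 8.80% to 20.7% of non-cycling CD8 T cells in the 5 control isotype mice and 22.4% and 31.4% in the control CD40 mice. In the B2m-null CD40 mice they were 25.5%, 31.5%, 52.7% and 49.4%, and the 2 mice of pool 2 were again the highest. Among cells with 2 or more UMIs of Gzmb and Prf1, Gzmk-positive cells were 13.8% to 37.9% in the 5 control isotype mice, and both control CD40 mice lay inside or just above that range, the higher at 39.6%. With B2m-null tumours they were 35.9% to 64.7% in the 4 CD40 mice and 41.4% in isotype mouse 4, the only isotype mouse there with at least 20 such cells. These cells are called Gzmb or Prf1 cells below, and there were 3148 of them. They made up 32.2% to 53.7% of non-cycling CD8 T cells in the control isotype mice, against 37.8% and 23.9% in the control CD40 mice. With B2m-null tumours they were between 9.43% and 29.7% in isotype mice 1, 4 and 5 and 29.4%, 33.6%, 35.6% and 40.1% in the CD40 mice. These shares include genes of the rule and were not tested.

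The second question was how members differ from Gzmb or Prf1 cells of the same animals. Levels are in CPM, that is a gene's UMIs per 1000000 UMIs summed over the cells of 1 kind in 1 mouse, and log2 differences, standard errors (SE) and adjusted p-values come from edgeR's quasi-likelihood test with the mouse as a block. Members held more transcripts of Tcf7, Klf2, Tox, Itga4 and Itgb1 and less of Gzma, Tnfrsf9, Il2ra, several killer-lectin receptors and several glycolytic enzymes. Of 6790 genes tested, 175 passed an adjusted p of 0.05, or 2.58%, with 52 (0.766%) higher and 123 (1.81%) lower in members. The 6 mice with at least 20 cells of both kinds were used, 5 of them CD40-treated. The Gzmb or Prf1 cells were deeper, with a median of 2835.5 UMIs per cell. With cells of at least 1000 UMIs thinned to that depth and the others left out, 84 genes passed. Of the 128 original calls that could be tested, 50 passed again.

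Tcf7 (ENSMUSG00000000782, GRCm38 chr11:52252371-52283014, minus strand) encodes TCF-1, the transcription factor of stem-like and memory T cells. In members it stood at 203 and 173 CPM in the control CD40 mice, at 46.3, 184 and 140 CPM in B2m-null CD40 mice 2 to 4, and at 99.6 CPM in the isotype mouse. In the Gzmb or Prf1 cells of the same mice, in the same order, it stood at 101, 105, 18.3, 93.1, 71.8 and 47.8 CPM. The level was higher in members in each of the 6 mice, with a log2 difference of 0.90 (SE 0.10, edgeR adjusted p = 6.19e-07). Of the 11 stem-like and naive T cell genes tested, 2 were higher and 1 lower in members. Klf2, which controls genes of lymphocyte egress, was higher by 0.44 (SE 0.08, adjusted p = 0.00155) but not in the isotype mouse, where it stood at 114 against 127 CPM. Satb1, a chromatin organiser of thymocytes, was lower (log2 -0.51). Lef1 did not pass, with a log2 difference of 0.42. The list's median log2 difference was 0.28, against 0.00 over all genes tested.

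Of 7 other granzyme genes, 3 were tested and 2 were lower in members, Gzma and Gzmc, and the third estimate was positive. Gzma, a tryptase, stood at 215 and 128 CPM in members of the control CD40 mice, 272, 372 and 311 CPM in the B2m-null CD40 mice and 128 CPM in the isotype mouse. In the Gzmb or Prf1 cells the same mice had 893, 584, 621, 1389, 1452 and 427 CPM. The 2 sets of mice did not overlap, and the log2 difference was -1.97 (SE 0.10, adjusted p = 7.19e-12). Gzmc (ENSMUSG00000079186, GRCm38 chr14:56231441-56234656, minus strand) had 4 UMIs in members of all 6 mice and 1761 in the Gzmb or Prf1 cells. It lies in a cluster of closely similar granzyme genes that includes Gzmb, so its counts are uncertain. Of 15 effector memory and cytotoxic genes, all tested, 3 were lower (Gzma, and the receptor chains Klrd1 and Klrk1 with log2 -0.44 and -0.33) and none was higher. Ccl5 did not pass, with 12326 ± 7489 CPM in members (SD, n = 6) and 10556 CPM on average in the Gzmb or Prf1 cells. Ifng had a log2 difference of -1.13 that missed the threshold (adjusted p = 0.0752).

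Of 19 T cell receptor response genes tested, 2 were lower and none was higher, with 9 estimates positive and a median of -0.01. Tnfrsf9, which encodes 4-1BB, stood at 46.0, 29.2, 52.1, 23.4, 18.7 and 56.9 CPM in members and at 261, 153, 108, 106, 123 and 248 CPM in the Gzmb or Prf1 cells, in the order given for Tcf7. Members and Gzmb or Prf1 cells did not overlap, and the log2 difference was -2.29 (SE 0.14, adjusted p = 1.65e-13). Il2ra, the IL-2 receptor alpha chain, was also lower (log2 -2.15, adjusted p = 1.48e-07). Tnfrsf4, which encodes OX40, had a log2 difference of -1.53 (adjusted p = 0.000281). Tnfrsf9 and Tnfrsf4, both of the TNF receptor family, were the 2 response genes that passed. Of 13 cytokine receptors, 4 were lower, namely Il2ra, Il12rb2 (log2 -1.08), Il12rb1 (-0.61) and Il2rb (-0.36).

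Of 11 inhibitory and exhaustion genes tested, 10 estimates were negative, 2 of them passing, and 1 was positive and passed. Havcr2, which encodes TIM-3, was lower in members in each of the 6 mice, with a mean of 33.3 ± 32.8 CPM against 95.5 ± 51.5 CPM (SD, n = 6) and a log2 difference of -1.85 (SE 0.17, adjusted p = 9.3e-09). The isotype mouse was the highest in both kinds of cell, at 99.6 and 188 CPM. Tox, a transcription factor of exhausted and chronically stimulated cells, was higher in members in each of the 6 mice, from 156 to 338 CPM against 120 to 254 CPM (log2 0.42, adjusted p = 0.00306). Pdcd1 stood at 108 ± 26.6 CPM in members (SD, n = 6) and did not pass (log2 -0.20). Lag3 and Rgs16 had log2 differences of -0.85 and -1.06 with adjusted p of 0.197 and 0.202. The other gene of that list that was lower was Tnfrsf9. Of 11 killer-lectin and late effector genes, 5 were lower, led by Klre1 (log2 -1.02) and Klrc1 (-0.95).

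Several glycolysis and hypoxia genes were lower in members. Of 17 tested, 9 were lower and none was higher, the median log2 difference was -0.40, and all 17 estimates were negative. Ldha, which encodes a lactate dehydrogenase subunit, stood at 475, 314, 799, 442, 549 and 484 CPM in members and at 686, 450, 907, 647, 754 and 608 CPM in the Gzmb or Prf1 cells, lower in members of each mouse (log2 -0.46, adjusted p = 0.000162). Tpi1, a glycolytic isomerase, and the hexokinase gene Hk2 were lower (log2 -0.60 and -0.89). Of 15 residual cell-cycle genes, 3 were lower, Mcm2, Mcm5 and Stmn1, although both kinds of cell had no Mki67 or Top2a UMI. Of 12 heat-shock genes 3 were lower, and of 19 nuclear genes of the respiratory chain 2 were lower.

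Among adhesion and migration genes, 3 were higher and 4 lower of 20 tested, and 15 of the 20 estimates were negative. Itga4 and Itgb1, the 2 chains of the integrin VLA-4, were higher in members (log2 0.47 and 0.48, adjusted p = 0.000129 and 0.00215). The third was Klf2. Anxa2, Lgals1, S100a6 and S100a4 were lower (log2 -0.59, -0.52, -0.28 and -0.25). None of 19 interferon-gamma response genes and none of 11 chemokine and chemokine receptor genes passed. Macrophage transcripts did not separate the 2 kinds of cell: none of 9 macrophage markers passed, with a median log2 difference of 0.14.

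Besides Tcf7, the higher genes with the largest differences that held in every mouse were Adnp2 (log2 0.99), Acss1 (0.87), Pou6f1 (0.82), Mpp1 (0.80), Ifngas1 (0.72), Ssbp2 (0.72), Slc7a6os (0.60), Epb41l4aos (0.60) and Rnf19b (0.59). Acss1 encodes a mitochondrial acetyl-CoA synthetase. Ifngas1 is a noncoding RNA next to Ifng on the other strand, and Epb41l4aos and Slc7a6os are likewise named as opposite-strand genes, so reads of overlapping partners are uncertain. Among those lower in members, beyond the granzymes and receptors above, were Nrgn (log2 -2.78), Cks1b (-1.24) and Pdcd1lg2 (-1.04). Nrgn encodes a calmodulin-binding protein, and Pdcd1lg2 encodes the PD-1 ligand PD-L2.

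**Figure D2:**
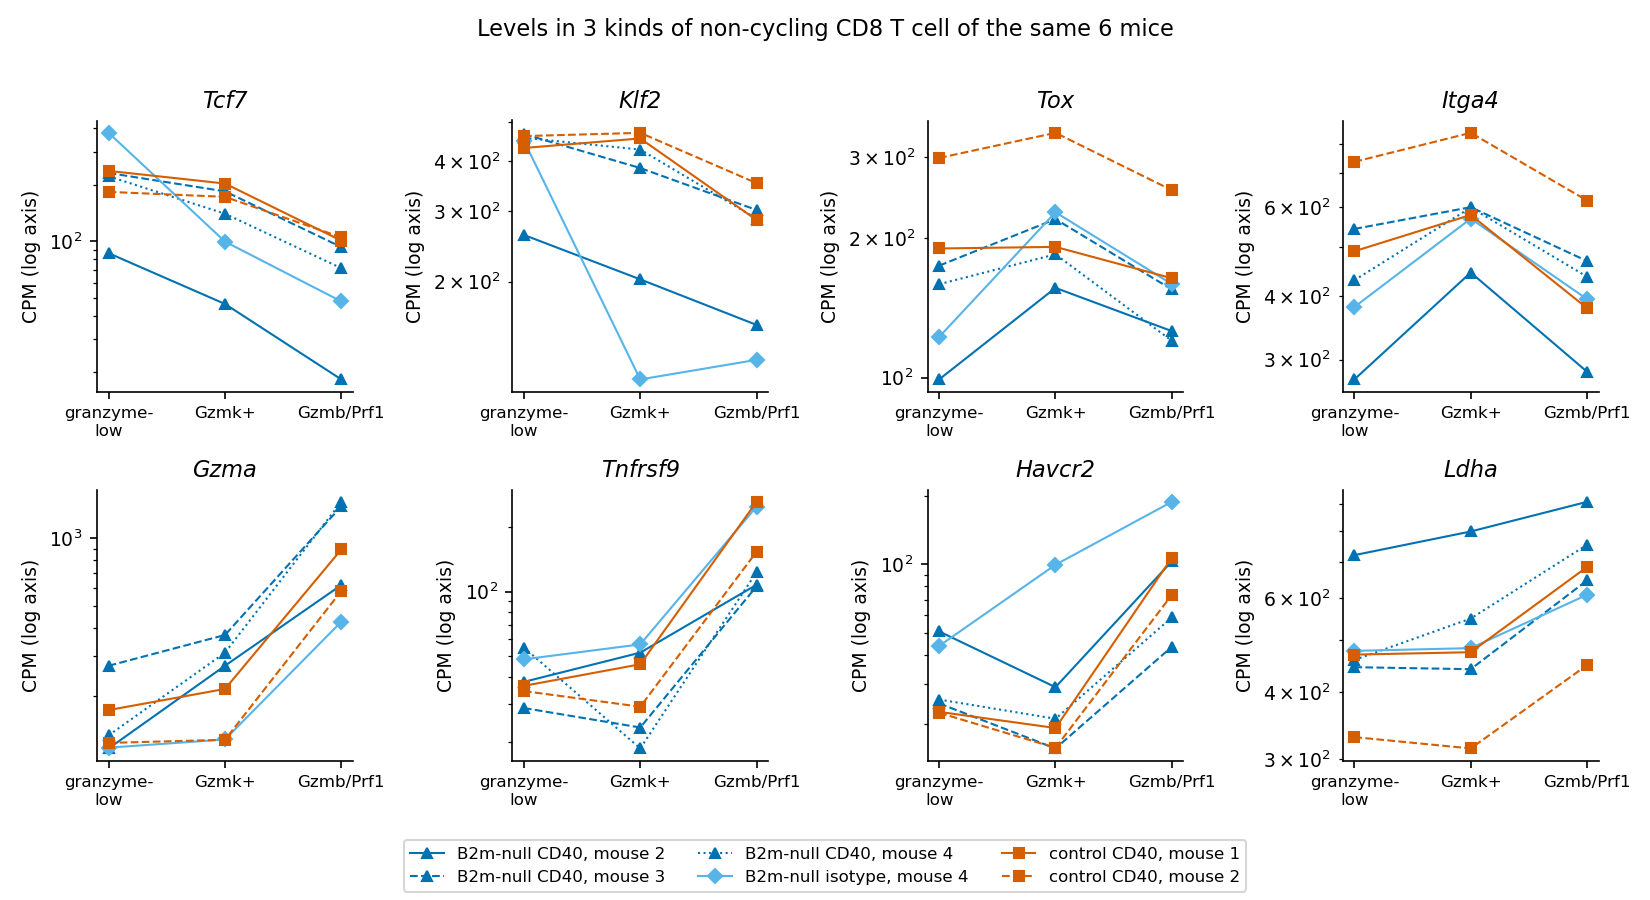
CPM on a log axis of 8 genes in granzyme-low cells, in Gzmk-positive members and in Gzmb or Prf1 cells of the same 6 mice, 1 line per mouse. Tcf7, Tox and Itga4 were higher in members than in Gzmb or Prf1 cells in all 6 mice, Gzma, Tnfrsf9, Havcr2 and Ldha were lower in all 6, and Klf2 was higher in 5.

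**Figure D3:**
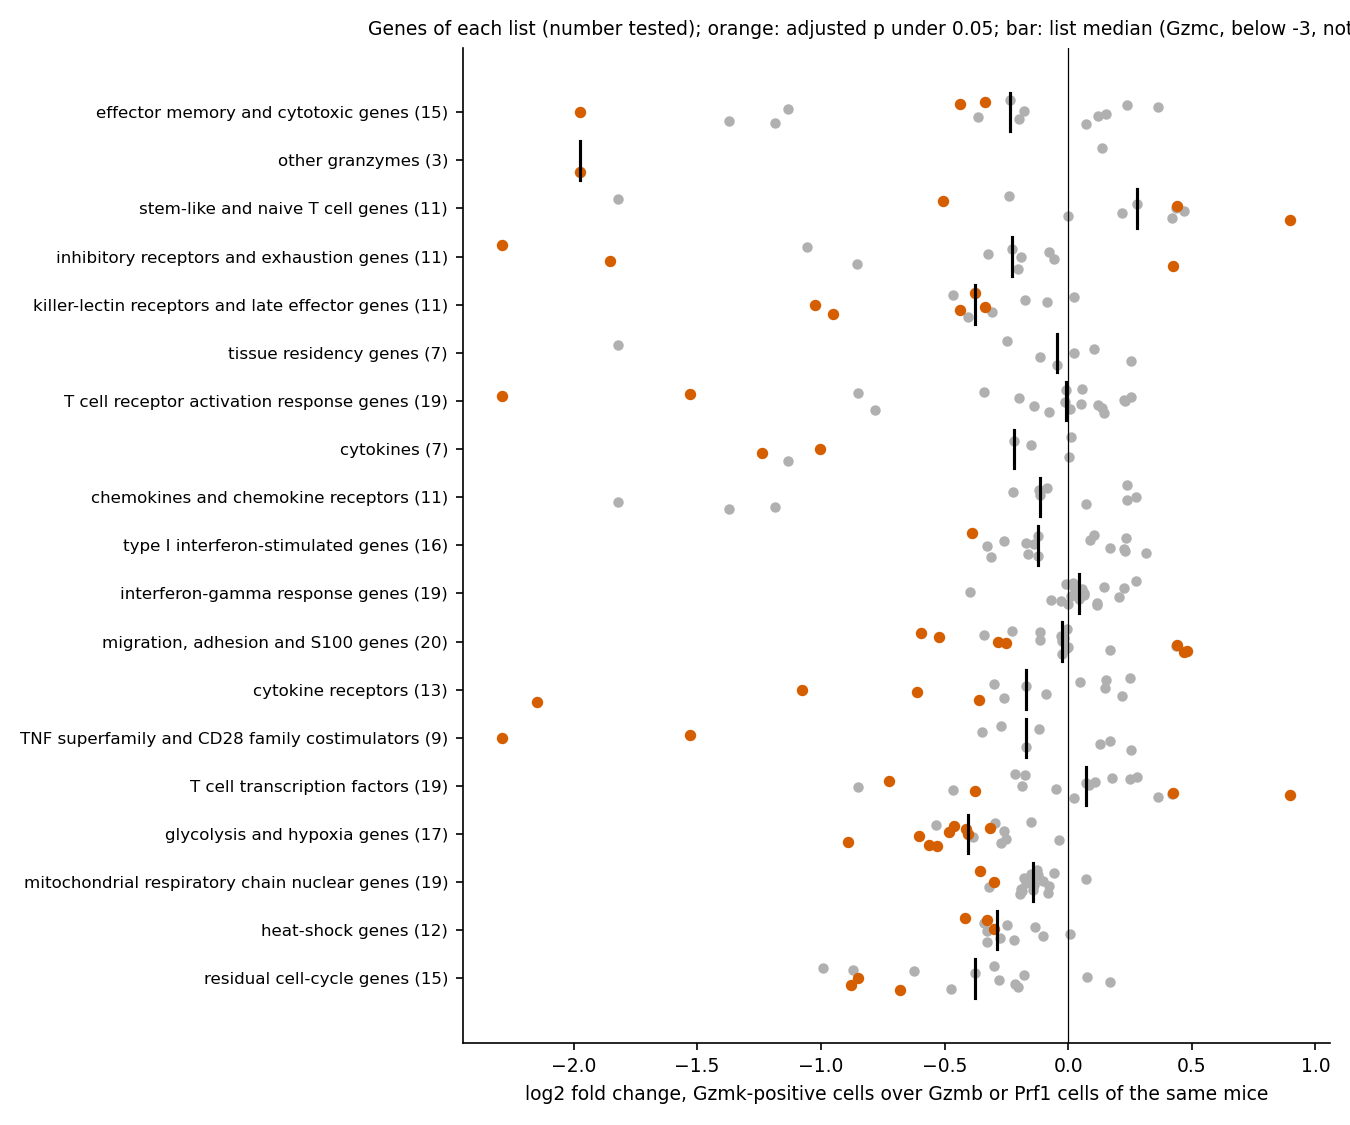
Log2 differences between members and Gzmb or Prf1 cells of the same mice for the genes of each list, with the number tested in brackets; orange points passed an adjusted p of 0.05 and the bars are list medians. Glycolysis genes all lay below 0 with a median of -0.40, whereas stem-like genes had a median of 0.28.

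The comparison with granzyme-low cells of the same mice, added after the data were seen, found few differences. Of 5693 genes tested, 6 passed, or 0.105%, with 3 (0.0527%) in each direction. Esm1, which encodes a secreted proteoglycan, was higher in members, at 34.5 and 24.9 CPM in the control CD40 mice, 46.3, 32.9 and 37.4 CPM in the B2m-null CD40 mice and 42.7 CPM in the isotype mouse. In granzyme-low cells it stood at 12.9, 14.5, 17.8, 17.8, 7.86 and 0 CPM, with no overlap (log2 1.13, SE 0.24, adjusted p = 0.0311). The chemokine receptor gene Ccr2 was higher in members in each mouse (327 ± 116 against 227 ± 38.0 CPM, SD, n = 6, log2 0.39, adjusted p = 0.0311). Ccl5 (ENSMUSG00000035042, GRCm38 chr11:83525778-83530518, minus strand) was higher by 0.37 (adjusted p = 0.0373), in 5 of 6 mice. The exception was B2m-null CD40 mouse 2, at 3420 CPM in members and 3754 CPM in granzyme-low cells. Zfp36l1 and Zfp36, which encode proteins that speed the decay of AU-rich mRNAs, were lower in each mouse (log2 -0.54 and -0.41), as was Ccl12 in 5 of 6. By pool, 3 of the 5 genes that could be tested were called again, and the Ccl12 estimate changed sign, from -0.98 to 0.08. Of 12 stem-like genes tested none passed, and the median was -0.28. Tcf7 stood at 141 ± 59.0 CPM in members (SD, n = 6) and at 223 CPM on average in granzyme-low cells. DESeq2 called none of these 6 genes and no other gene, with 189 genes at an unadjusted p under 0.05 against 437 by edgeR, and without control CD40 mouse 1 edgeR called 1 gene. Granzyme-low cells were shallower, with a median of 1503.5 UMIs against 1883 in members. With cells thinned to 1000 UMIs, 0 of the 4 original calls that could be tested were made again.

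Within the members, joint detection was looked at for a few pairs of genes. Among 1877 members of the CD40 groups, 486 had a Tcf7 UMI and 319 a Pdcd1 UMI, and 88 had both, which is 18.1% of the Tcf7-positive and 16.6% of the other members. Gzma was detected in 19.3% of the Tcf7-positive members and in 16.5% of the others. For Havcr2 the shares were 3.91% and 3.88%. Pdcd1 was detected in 15.8% of the Il7r-positive members and in 17.3% of the others. Deeper cells have more of every gene, and the shares were not adjusted for that. These shares therefore cannot show whether the members hold separate kinds of cell.

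The third question was how the members differed between CD40 and isotype antibody. The isotype groups held too few members per mouse for a fit by mouse, so pools were used: 4 isotype pools with 9 to 27 members each and 3 CD40 pools with 156 to 1010. In the edgeR fit, members under CD40 antibody held more transcripts of Rora, Il18r1, Cxcr3, S1pr1, S1pr4 and Klf2, among others. They held fewer of Tnfrsf9, Irf8, Cd83 and Rgs16. In several other settings, given below, few of the calls of this contrast were made again. For the mean of both tumour genotypes, a contrast added after the data were seen, 48 of 2764 genes passed, or 1.74%, with 31 (1.12%) higher and 17 (0.615%) lower. In control tumours alone 14 passed, or 0.507%, with 5 (0.181%) higher and 9 (0.326%) lower. In B2m-null tumours alone 15 passed, or 0.543%, with 11 (0.398%) higher and 4 (0.145%) lower. The contrasts in the 2 genotypes compare different pools, but both come from 1 fit over all pools. They share its gene filter, scaling and estimate of the spread, and the mean contrast contains both. The control CD40 group is 1 pool, so its spread was taken from the other groups and it is assumed to vary as they do.

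Rora, which encodes a nuclear receptor of lymphocytes, had 0 and 2 UMIs in the B2m-null isotype pools and 3 and 5 in the control isotype pools, or 0, 24.4, 132 and 93.5 CPM. In the CD40 pools it stood at 350 and 249 CPM with B2m-null tumours and at 344 CPM with control tumours. The pools did not overlap, the mean log2 change was 3.02 (SE 0.45, edgeR adjusted p = 5.7e-06), and the pooled CPM ratio was 5.76 with a counting interval of 3.12 to 12.0. The planned fit by mouse in B2m-null tumours called 2 of 6210 genes (0.0322%, or 0.0161% in each direction), with Rora the higher one. It has 1 isotype mouse, whose cells are also in the pools, and neither call was made again in 4 of the 5 fits that left out a mouse, while both were in the 4 fits that left out a sequencing lane. With limma-voom neither was called. It adds no independent evidence. Il18r1, a chain of the IL-18 receptor, had 5 UMIs in all isotype pools against 817 under CD40, a CPM ratio of 7.10 with a counting interval of 3.03 to 21.9 (log2 3.09, adjusted p = 0.000261). Of 9 cytokine receptors tested, Il18r1 alone passed, and 8 of the 9 estimates were positive.

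Of 11 chemokine and chemokine receptor genes 1 was higher, Cxcr3, with 6 estimates negative and a median of -0.80, and of 19 migration and adhesion genes 2 were higher. Cxcr3, the receptor for interferon-induced chemokines, stood at 44.1, 0, 65.3 and 60.9 CPM in the isotype pools and at 101, 203 and 142 CPM in the CD40 pools (log2 2.53, adjusted p = 0.012). S1pr1, which draws lymphocytes out of tissue, had 3 UMIs in all isotype pools and 474 under CD40, a CPM ratio of 6.86 with an interval of 2.33 to 33.4. S1pr4, a related receptor, likewise had 3 against 501 UMIs, a ratio of 7.25 with an interval of 2.47 to 35.3. Klf2 stood at 132, 150, 196 and 110 CPM in the isotype pools and at 465, 242 and 403 CPM in the CD40 pools (log2 1.63, adjusted p = 0.00318). S1pr1 and Klf2 were the 2 of 8 stem-like genes tested that passed, and that list's median log2 change was 0.66, against 0.03 over all genes. Of 14 interferon-gamma response genes, Irf1 and Igtp rose (log2 1.68 and 2.18), and the median was 0.43. The transcription factor gene Irf1 stood at 44.1 to 112 CPM in the isotype pools and at 169, 177 and 385 CPM in the CD40 pools.

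Other genes that rose without overlap were Cd7, Rasgrp2 and Serpina3g (log2 2.04, 2.47 and 1.91). Rasgrp2 encodes an activator of the small GTPase Rap1, and Serpina3g encodes a serine protease inhibitor of activated T cells. Igkc, an immunoglobulin light chain gene, had 2 UMIs under isotype and 563 under CD40. T cells do not make immunoglobulin. The 5 other B cell markers were all at 0 in the 4 isotype pools and summed to 38.9 to 84.4 CPM in the CD40 pools, and their part in the Igkc difference was not tested.

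Among the lower genes, Tnfrsf9 stood at 176, 187, 294 and 48.8 CPM in the isotype pools and at 55.2, 23.7 and 34.4 CPM in the CD40 pools, an overlap of 1 pool (CPM ratio 0.220 with a counting interval of 0.145 to 0.346, adjusted p = 0.0388). Rgs16, a regulator of G protein signalling, stood at 441, 131, 97.9 and 110 CPM under isotype and at 36.8, 34.2 and 49.8 CPM under CD40 (log2 -1.78, adjusted p = 0.042). With Gzmk of 2 or more the Rgs16 change was 0.65, and the call was lost with DESeq2 and in 5 of the 8 fits that left out a lane. Tnfrsf9 and Rgs16 were the 2 of 10 inhibitory and exhaustion genes that passed, 8 of the 10 estimates were negative, and the median was -0.59. Atf3, a stress-induced transcription factor gene, and Rbpj, the transcription factor gene of Notch signalling, fell by 1.86 and 1.24 on the log2 scale, without overlap. Pdcd1, Havcr2 and Tox did not pass (log2 -0.38, -2.11 and 0.02). Of 17 T cell receptor response genes, Tnfrsf9 and Irf8 fell, and the median was -0.30.

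Irf8, Cd83, H2-Eb1 and Cd74, which antigen-presenting cells express, were among the lower genes. Irf8 stood at 176, 262, 881 and 256 CPM under isotype and at 129, 97.7 and 67.8 CPM under CD40 (log2 -1.80, adjusted p = 0.00193). Cd83 and the MHC class II genes H2-Eb1 and Cd74 also fell (log2 -3.16, -1.81 and -1.33), the MHC genes with overlap between pools. The 9 dendritic cell markers summed to 529 to 6819 CPM in the isotype pools and to 510 to 1094 CPM in the CD40 pools, with the highest value in B2m-null isotype pool 1, where none of them was at 0. The 12 macrophage markers summed to 4888 to 6558 CPM under isotype and to 2769 to 7032 CPM under CD40. For the mean of both genotypes, all 5 dendritic cell markers tested had negative estimates, with a median log2 change of -4.80, and none passed. Of 7 macrophage markers tested, 6 estimates were negative, and 1 gene passed as lower. The part of macrophage and dendritic cell transcripts in the differences was not tested. Among members with no C1q UMI, 12 of the 38 original calls that could be tested were called again. With Gzmk of 2 or more it was 0 of 18, and with cells thinned to 1000 UMIs it was 1 of 23. Without control isotype replicate 2, edgeR called 5 genes and 3 of the 48 were called again. DESeq2 called 18 genes, 2 higher and 16 lower, 7 of the 48 among them, so the balance of directions was the other way.

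**Figure D4:**
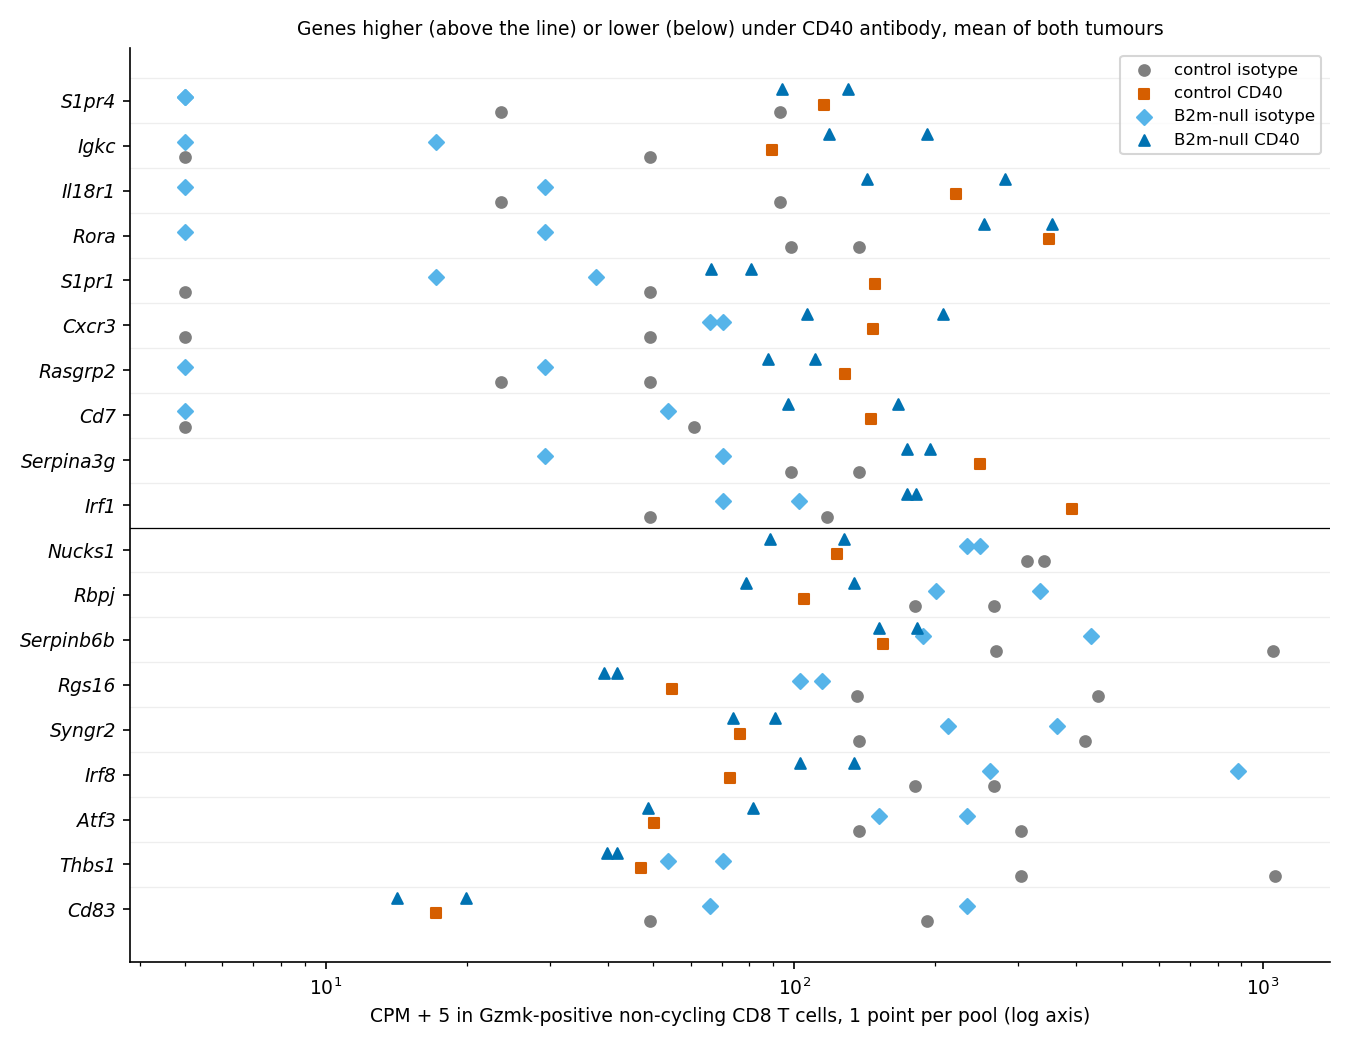
CPM plus 5 on a log axis in members of each pool for the 19 genes named by rule for CD40 against isotype antibody over both tumour genotypes. As the rule required no overlap, isotype pools lie left of CD40 pools above the line and right of them below it. The values at 5 are pools with no UMI of the gene.

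The 2 tumour genotypes are given separately as descriptions, since control CD40 is 1 pool. In control tumours Hcst, which encodes the adaptor DAP10, rose from 360 ± 113 CPM (SD, n = 2 pools) to 1416 CPM, and Irf1, Ppp1r18 and Cxcl9 rose from 7, 3 and 2 UMIs under isotype. Thap3 had no UMI in the control isotype pools against 362 under CD40, at least 4.16-fold higher against a floor of 3 UMIs over the group. The genes that fell there were Thbs1, Ms4a4c, Ms4a6d, Ccl9, Mmp12, Ctsh, Serpinb6b, Syngr2 and Bcl2a1b, with log2 changes from -3.66 to -1.83. In the same contrast 5 of 7 macrophage markers and all 5 dendritic cell markers tested had negative estimates, although none passed. The dendritic cell markers summed to 529 and 3981 CPM in the control isotype pools and to 510 CPM in the control CD40 pool, and their part in these falls was not tested. Mmp12, a macrophage metalloprotease gene, rested on control isotype replicate 2: its 2 isotype pools had 1 and 21 UMIs, and without that pool its log2 change was 0.07. In B2m-null tumours Il18r1, Serpina3g, Ly6a, Ctsl, Mt1, Fth1, Igkc, Mmp12 and S1pr4 rose along with Rora. S1pr4 had no UMI in the B2m-null isotype pools, so it was at least 4.50-fold higher. Cxcl9, Irf8 and Rgs2 fell. In control tumours, 4 genes passed without control isotype replicate 2, 89 and 97 without B2m-null isotype replicate 1 and 2, and 2 with DESeq2.

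The difference of the CD40 effects between genotypes was tested directly with pools. Here too control CD40 is 1 pool, and its spread was taken from the other groups. Of 2764 genes 4 passed, or 0.145%, with 1 (0.0362%) lower and 3 (0.109%) higher. None of the 4 was called again without control isotype replicate 2, and 1 was among members with no C1q UMI. Cxcl9, an interferon-induced chemokine gene, was lower under CD40 in B2m-null tumours and higher in control tumours, a difference of -5.18 (SE 0.87, adjusted p = 0.000139). It had 23 and 20 UMIs in the B2m-null isotype pools, 1 and 1 in the control isotype pools, and stood at 132, 81.7 and 231 CPM in the CD40 pools. Mmp12, Clec4n and Pnp differed the other way (7.06, 4.43 and 3.96). Mmp12 and Clec4n are genes of myeloid cells, and Cxcl9 is also made by macrophages and dendritic cells. The dendritic cell markers summed to 6819 and 2036 CPM in the B2m-null isotype pools, with 23 and 20 Cxcl9 UMIs. In the control isotype pools, with 1 and 1 Cxcl9 UMIs, they summed to 529 and 3981 CPM. The part of dendritic cell transcripts in these differences was not tested. DESeq2 called none of 2764 genes for this difference, with 86 at an unadjusted p under 0.05, against 179 by edgeR. Under isotype antibody alone, B2m-null and control tumours differed in 3 genes (0.109%, with 1 or 0.0362% higher and 2 or 0.0724% lower): Cxcl9 was higher with 43 against 2 UMIs, and Thbs1 and Mmp12 were lower with 6 against 40 and 1 against 22 UMIs. DESeq2 called none of these, with 83 genes at an unadjusted p under 0.05, against 137 by edgeR. Nearly all the control isotype Mmp12 UMIs came from replicate 2, as given above. With cells thinned to 1000 UMIs, 0 of the 2 calls that could be tested were made again. With the replicate number as a block 0 of the 3 were made again, and with the pairing of numbers crossed 2 were.

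The last comparison set B2m-null against control tumours under CD40 antibody, the only contrast between groups with at least 2 mice on both sides. Of 6210 genes 77 passed, or 1.24%, with 61 (0.982%) higher and 16 (0.258%) lower in B2m-null tumours. Gzma reached 272, 372 and 311 CPM in mice with B2m-null tumours against 215 and 128 CPM with control tumours (log2 1.11, SE 0.25, adjusted p = 0.0498). Isg20, an interferon-induced exonuclease gene, stood at 75.2, 39.8 and 32.7 CPM against 15.3 and 9.73 CPM (log2 2.11, adjusted p = 0.0409). The other genes named by rule as higher were Ech1 (log2 1.83), Cops6 (1.69), Ms4a6d (1.86) and Ccl12 (2.52). Ms4a6d and Ccl12 are myeloid genes, and the 12 macrophage markers summed to 7032 and 3901 CPM in the B2m-null CD40 pools and 2769 CPM in the control pool; their part was not tested.

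Among the lower genes, Cd274, which encodes PD-L1, measured 92.6, 58.0 and 53.8 CPM with B2m-null tumours against 184 and 134 CPM with control tumours (log2 -1.17, adjusted p = 0.0458). Tob1, an antiproliferative gene of resting T cells, stood at 46.3, 27.7 and 30.4 against 115 and 71.9 CPM (log2 -1.34, adjusted p = 0.0463). Hexim1, an inhibitor of transcriptional elongation, and Unkl were also lower (log2 -1.18 and -1.33), as was the acute-phase gene Saa3 (log2 -2.51), which myeloid cells express.

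By list, 3 of 19 nuclear respiratory chain genes were higher (Ndufs8, Atp5g1 and Atp5b, log2 1.38, 0.94 and 0.84), with a list median of 0.08 against -0.00 over all genes. Of 17 glycolysis genes 1 passed, Gapdh, at 527, 323 and 346 CPM against 226 and 185 CPM, and 16 of the 17 estimates were positive with a median of 0.67. Of 19 interferon-gamma response genes 1 passed, the immunoproteasome subunit gene Psmb8 (log2 0.91), while 15 estimates were negative and the median was -0.27. Of 17 type I interferon-stimulated genes Isg20 passed, with a median of 0.57. None of 15 stem-like, 12 inhibitory or 20 T cell receptor response genes passed.

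These calls depended on single animals. With edgeR no gene passed without B2m-null CD40 mouse 3 or without mouse 4 (609 and 646 at an unadjusted p under 0.05), 11 and 1 passed without control CD40 mouse 1 and 2, and 520 passed without B2m-null CD40 mouse 2. With at least 10 members per mouse 2 of the 77 were called again, and with Gzmk of 2 or more 2 of the 72 that could be tested. Both control CD40 mice came from 1 pool, so pool and tumour genotype cannot be told apart, and with pools as the unit 5 genes passed, 2 of them among the 61 original calls that could be tested.

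**Figure D5:**
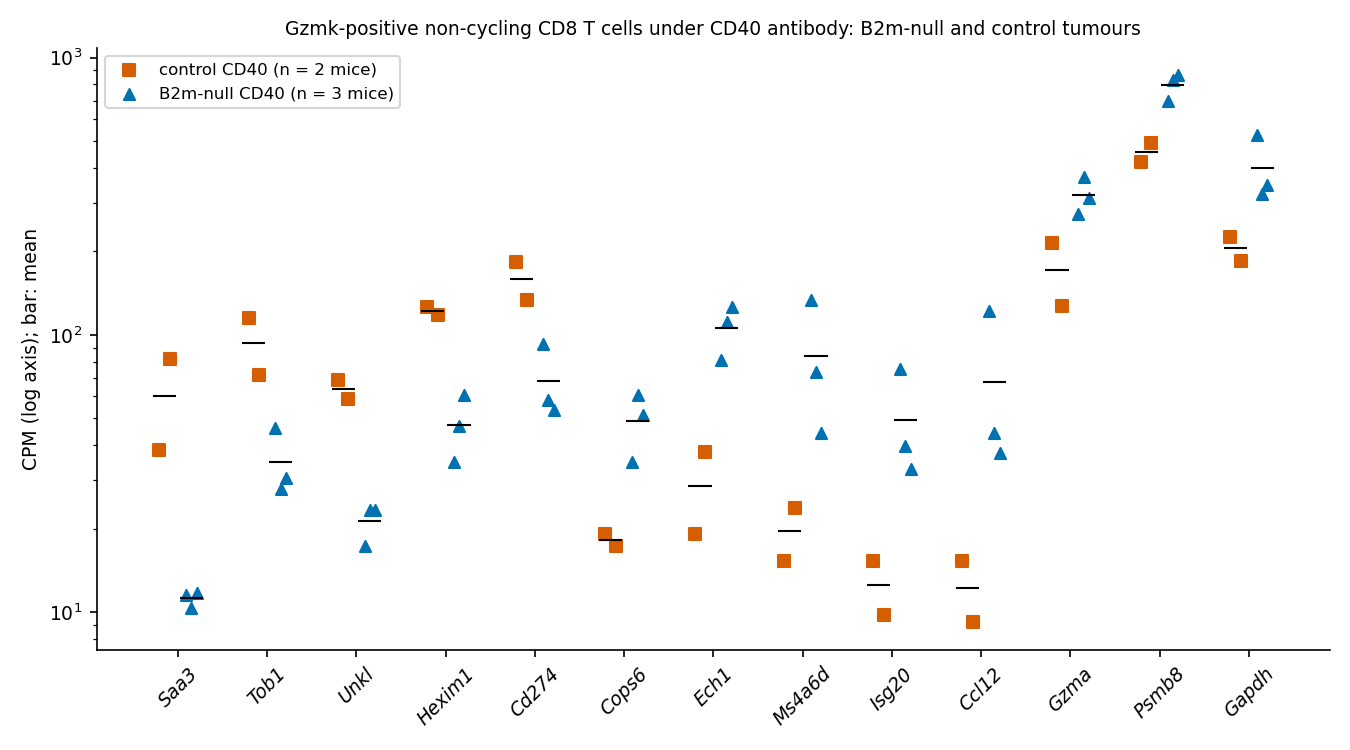
CPM on a log axis in members of each CD40-treated mouse with at least 20 members for the genes named by rule, and for Gzma, Psmb8 and Gapdh; bars are means of 2 control and 3 B2m-null mice. Lack of overlap between the mice of the 2 tumour genotypes was part of the naming rule. Gzma ran from 272 to 372 CPM in B2m-null against 128 and 215 CPM in control tumours.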

How the data were processed

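The deposited files hold UMI counts per gene and barcode (10x 3' version 3) and hashtag counts, made by the authors with Cell Ranger 3.0.0, bcl2fastq 2.20.0.422 and build mm10, per the submitters' processing notes. Members and gene lists were chosen with earlier results of these data known. A barcode was kept with 200 or more genes and no more than 10% mitochondrial UMIs, and no doublet caller was run. Each mouse was assigned by hashtag: after background subtraction, cells with 2 hashtags over 2.5 SD were called doublets, and remaining cells were assigned from 20 hashtag counts and a posterior of 0.9 upwards. Doublets and unassigned cells entered pool sums only. Counts were summed over at least 20 cells per mouse, or per pool, and tested with edgeR 4.0.16 (TMM, quasi-likelihood, Benjamini-Hochberg adjustment) in R 4.3.3; DESeq2 1.42.0 and limma 3.58.1 were alternatives. The planned fit by mouse could not be made for contrasts with isotype in control tumours, or between genotypes under isotype, so fits by pool are given. The 16 genes of the rule were left out of all counts of genes. Shares were compared by exact two-sided permutation over mice (scipy 1.17.1). Where cells were thinned, those below the target depth were left out. Genes were named by rule: an adjusted p under 0.05, a mean of at least 20 CPM in the higher group, no overlap between groups (or 1 direction in every mouse), and neither a rule, ribosomal nor mitochondrial gene nor an unnamed model, taking the 10 largest in each direction for CD40 contrasts and comparisons within mice and 5 for the others, plus called genes of the lists. Scripts were tested on simulated counts. Intervals are exact 95% binomial and cover counting error only. Replicate numbers of the labels are not stated to pair samples, and labels do not tie hashtags to litters or days, so p-values measure the spread between these mice or pools. One result is not reported here.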

Additional observations from a re-analysis of the deposited data

Results flagged for a closer look

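CD8 T cells made up 13.7% of the kept cells in control isotype mouse 1, a value far above the other 4 mice of its group, whose shares ran from 4.50% to 6.91%. They made up 7.62% in B2m-null isotype mouse 4, against 1.68% to 3.01% in the other 4. A total of 16 groups of shares were looked at in this way, and chance marks about 1 group in 20. B2m-null isotype mouse 4 holds 22 of the members assigned to a mouse in its group and is the isotype mouse used in the fits by mouse, whereas control isotype mouse 1 had 3 members.

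In 4 genes the effect of CD40 antibody in members differed between tumour genotypes in the direct test by pool. The differences, B2m-null minus control on the log2 scale, were -5.18 for Cxcl9, 4.43 for Clec4n, 7.06 for Mmp12 and 3.96 for Pnp, with edgeR adjusted p of 0.000139, 0.0453, 6.69e-05 and 0.0432. Each rests on the few members of the isotype pools and on 1 control CD40 pool, whose spread was taken from the other groups. None of the 4 was called again without control isotype replicate 2 or with DESeq2.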

How the results depend on the processing

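The shares kept their direction for CD40 against isotype in all alternatives run, but among CD8 T cells of B2m-null tumours the difference moved from 10.3 to 5.05 points at 2000 UMIs per cell (exact permutation p = 0.514). The difference between tumour genotypes under CD40 did not: among CD8 T cells it was -1.57 points at 2000 UMIs per cell, and among kept cells -0.516 at 2000 UMIs and -0.104 by pool. Among kept cells the genotype difference under isotype was -0.00696 at 2000 UMIs. By pool, p rose past 0.05 for the genotype difference under isotype among CD8 T cells (2.43 points) and non-cycling cells (4.15), for CD40 in B2m-null tumours among kept cells (3.56) and for CD40 over both genotypes (12.6, 15.97 and 3.63 points of CD8, non-cycling and kept cells), where the design allows no smaller p. The non-cycling genotype difference under isotype was 4.79 and 5.75 points at 1000 and 2000 UMIs, with exact permutation p of 0.0714 and 0.0952.

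Leaving out 1 mouse or lane moved the CD40 difference among CD8 T cells from 7.12 to 15.96 points in control tumours, from 3.25 to 17.4 in B2m-null tumours and from 7.40 to 14.5 over both. Among non-cycling cells the ranges were 8.48 to 18.6, 7.93 to 20.6 and 10.7 to 17.1, and among kept cells 1.89 to 4.61, 1.01 to 6.01 and 2.13 to 4.63. The genotype difference ranged from 1.85 to 3.13, 2.93 to 5.31 and -0.00198 to 0.134 under isotype, and from -5.67 to 8.49, -1.31 to 11.4 and -2.18 to 2.82 under CD40, for CD8, non-cycling and kept cells.

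Counts of genes moved more. For CD40 in B2m-null tumours all counts below except those by pool come from the fit by mouse, which called 2 genes, whereas the other contrasts with isotype are fits by pool. Without a filter on low counts they were 299 against Gzmb or Prf1 cells, 75 against granzyme-low cells, 110 for CD40 over both genotypes, 41 and 37 for CD40 in control and B2m-null tumours, 224 and 5 for genotype under CD40 and isotype, and 9 for the difference of effects. With DESeq2 they were 74, 0, 18 (2 higher and 16 lower), 2 (control), 0 (genotype under isotype) and 0 (difference). With cells thinned to 1000 UMIs they were 84, 2, 3, 7, 1, 132, 1 and 1 in the order of the unfiltered counts. Of the original calls that could be tested there, 50 of 128, 0 of 4, 1 of 23 and 1 of 7 were called again. For the remaining comparisons, in the same order, it was 1 of 2, 57 of 71, 0 of 2 and 0 of 1. With Gzmk of 2 or more the counts of genes were 6 (CD40 over both), 2 (control), 2 (genotype under CD40) and 1 (difference), and Rgs16 had a log2 change of 0.65. With no C1q UMI they were 20 (CD40 over both), 245 and 14 (genotype under CD40 and isotype) and 10 (difference). By pool they were 14 against granzyme-low cells, 15 for CD40 in B2m-null tumours and 5 for genotype under CD40. With limma-voom and the pool as a correlated block (estimated correlation -0.47) they were 13 for CD40 in B2m-null tumours, all lower and none of them an original call, and 1328 for genotype under CD40 (727 higher and 601 lower), and with at least 10 members per mouse 3 for the latter. For Mmp12 the log2 change for CD40 in control tumours ranged from -3.22 without control isotype replicate 1 to 0.0737 without replicate 2.

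Without 1 mouse or lane, counts ran from 54 to 204 against Gzmb or Prf1 cells (54 without control CD40 mouse 2, 81 without B2m-null CD40 mouse 3, 97 without control CD40 mouse 1), from 1 to 39 against granzyme-low cells, from 5 to 228 for CD40 over both genotypes, from 4 to 97 and 0 to 172 for CD40 in control and B2m-null tumours, from 0 to 520 and 2 to 4 for genotype under CD40 and isotype, and from 2 to 17 for the difference. The cause was not tested. These counts are of any genes called, not only of original calls made again.

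Same-numbered samples correlated at -0.134, -0.0831 and 0.128 in their deviations. Not every value is over 0.1, so the numbers were not taken to pair the samples, although 3 values over 2 numbers do not settle it. With a replicate block, 203 genes were called by mouse for CD40 in B2m-null tumours, and none by pool there or for genotype under isotype (145 and 53 at an unadjusted p under 0.05 with edgeR). A crossed pairing, added after the data were seen, called 2. Isotype pools of 22696 to 82042 UMIs limit all contrasts with isotype.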
